A study of Mus musculus with 4 samples.

Results

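The transcription factor ATF4 and genes of the pathway around it were followed in mouse liver with a conditional knockout of NIPP1. The 10 genes described are Atf4, Atf5, Ddit3, Trib3, Asns, Psat1, Phgdh, Chac1, Sesn2 and Gdf15, of 30397 gene labels on the array. They were chosen by name, as known members of the pathway, after earlier results of these data had shown high ratios for some of them. All their knockout over control ratios are therefore given as a description, without a test. The knockout livers came from 4 male mice of mixed strain, 2 months old and untreated, labelled as conditional liver NIPP1 knockouts. The control livers came from 4 male mice of the same strain label, age and treatment, labelled as controls. Each of 4 two-colour arrays carried RNA of 1 knockout and 1 control mouse, and no mouse was used on more than 1 array. Knockout RNA carried the dye Cy3 on replicates 1 and 2 and the dye Cy5 on replicates 3 and 4. The sources used here do not state the Cre driver, the deleted exons or the alleles that the control mice carry.

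ATF4 is the main effector of the integrated stress response. Kinases that sense missing amino acids, unfolded protein in the endoplasmic reticulum, low heme or double-stranded RNA phosphorylate the translation factor eIF2 alpha. General translation then slows while the Atf4 mRNA is translated more, and ATF4 turns on genes for amino acid synthesis and uptake, stress factors and secreted signals. Protein phosphatase 1 ends the response when its partners Ppp1r15a or Ppp1r15b bring it to eIF2 alpha. NIPP1 (gene symbol Ppp1r8) is another regulator of this phosphatase and acts in the nucleus.

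Many ATF4 targets carry a composite element for C/EBP and ATF factors, whose core was searched here as TGATGNAA on both strands. The promoter windows were taken from RefSeq on the build GRCm38.p6 and ran from 250 bases before to 50 bases after each annotated start, counted from 1 on each side of the start with bases before it negative. All 10 members matched a window, with 13 windows in all, and 3 members held the core, against 4.51% of 27025 gene symbols and 3.97% of 32851 windows. They were Asns on chr6:7693160-7693459, minus strand, at positions -23 to -16, Trib3 on chr2:152344011-152344310, minus strand, at positions 15 to 22, and Chac1 on chr2:119350992-119351291, plus strand, at positions -193 to -186. These 3 promoters are printed because they are the members' windows that hold the core. Because the members were chosen as known genes of the pathway, nothing is read from their share against that of all genes. Capitals mark the core, which lies on the opposite strand in Trib3 and Chac1.
Asns: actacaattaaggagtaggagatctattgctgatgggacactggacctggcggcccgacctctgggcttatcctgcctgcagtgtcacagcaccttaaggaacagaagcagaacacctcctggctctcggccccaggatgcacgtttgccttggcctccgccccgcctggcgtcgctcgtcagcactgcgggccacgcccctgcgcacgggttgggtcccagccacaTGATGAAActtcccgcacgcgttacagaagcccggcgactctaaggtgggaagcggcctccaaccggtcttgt
Trib3: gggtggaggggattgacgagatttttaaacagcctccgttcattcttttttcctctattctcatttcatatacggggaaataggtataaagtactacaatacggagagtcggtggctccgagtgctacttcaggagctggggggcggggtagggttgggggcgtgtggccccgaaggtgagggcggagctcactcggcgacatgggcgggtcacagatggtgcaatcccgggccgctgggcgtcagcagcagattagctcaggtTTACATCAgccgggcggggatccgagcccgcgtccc
Chac1: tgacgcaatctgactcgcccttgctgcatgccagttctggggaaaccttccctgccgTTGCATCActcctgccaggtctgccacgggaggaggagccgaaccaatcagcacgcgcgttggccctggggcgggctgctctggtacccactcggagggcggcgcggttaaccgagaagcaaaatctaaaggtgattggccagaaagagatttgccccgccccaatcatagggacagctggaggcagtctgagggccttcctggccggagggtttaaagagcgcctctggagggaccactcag
The core was not found in the windows of Atf4, Atf5, Ddit3, Psat1, Phgdh, Sesn2 or Gdf15, which says only that these letters are not in those stretches.

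The targeted gene was examined first. The brighter of 2 Ppp1r8 probes, at chr4:132383193-132383252 on the build mm9, had log2 levels of 6.88, 6.89, 6.74 and 6.89 in the knockout livers of replicates 1 to 4, against 7.49, 7.62, 7.48 and 7.52 in the control livers. A level is the normalized log2 intensity of a dye on an array, and it is compared only between mice at the same probe. All 4 knockout livers lay below all 4 control livers. The log2 ratio was -0.68 ± 0.07 (SD, n = 4 arrays), with an adjusted p of 0.0586 in the limma fit over all genes, which passes a threshold of 0.1 and not 0.05. The call at 0.1 was lost when any 1 array was left out (adjusted p = 0.116 to 0.248, limma), while the log2 ratio stayed at -0.71 to -0.64. The other probe gave -0.65 ± 0.08 (SD, n = 4). In the scanner software's processed signals, which the authors used, the brighter probe gave -1.33 ± 0.12 (SD, n = 4). Processed signals spread dim probes more, so the size of the loss depends on the processing. Whole liver was measured, so fewer cells with a transcript and less of it per cell cannot be told apart.

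The fit tested 16249 genes, of which none passed an adjusted p of 0.05 in limma, while 3694 had an unadjusted p under 0.05. At an adjusted p of 0.1, 574 genes were higher and 336 lower in knockout livers. The share of spots well above background was 52.7% to 56.3%, and the number of arrays limits the precision. Over all tested genes, the ratios of replicate 1 correlated at r = 0.27 with replicate 2, 0.18 with replicate 3 and -0.27 with replicate 4. The other pairs gave 0.26 for replicates 2 and 3, 0.16 for replicates 2 and 4 and 0.52 for replicates 3 and 4. Markers of pancreatic acinar cells, of which 17 of 20 were tested, had median log2 ratios of 4.23, -2.61, -0.16 and -1.02 on replicates 1 to 4. The summed acinar level was 4950 to 71000 intensity units in knockout livers and 5580 to 18100 in control livers, and 6 of the 17 were well above background in all 8 mice. All 8 hepatocyte markers were well above background in all 8 mice, with median log2 ratios of -0.40, -0.19, 0.21 and 0.60. At an adjusted p of 0.1 in limma, 1 of them, Alb, was called higher, as were 3.53% of all tested genes. Its log2 ratios were -0.44, -0.24, 1.2 and 1.24, below 0 with the knockout in Cy3 and above 0 with it in Cy5. The fitted error does not count that spread between dye orientations. Of 6 biliary markers, 2 were higher at 0.1 in limma, against 3.53% of all tested genes. They were Krt19, at 0.14, 0.51, 0.99 and 0.9, and Spp1, at 0.26, 0.23, 0.39 and 0.59. The other biliary markers had mean log2 ratios of 0.13 for Krt7, 0.09 for Epcam, 0.01 for Cftr and -0.21 for Sox9. The summed biliary level was 1320 to 1510 in knockout livers and 962 to 1250 in control livers, and 4 of the 6 markers were well above background in all 8 mice. Krt19, Spp1, Krt7 and Epcam were above 0 on all 4 arrays, and Sox9 and Cftr were not. Asns and Atf5 were also above 0 on all 4, as were 13.3% of all tested genes. The part of biliary cells in the Asns and Atf5 ratios was not tested. No marker of macrophages, endothelial cells, stellate cells, red blood cells or neutrophils passed at 0.1, which does not show that these cells did not differ. The red blood cell marker Alas2 had 0.36, -2.08, -2.28 and -2.25, while Hba-a1 and Slc4a1 had means of -0.13 and -0.03. Neutrophil medians were 0.77, -1.17, -0.03 and 0.27.

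The 10 genes did not move together in the NIPP1-deficient livers. Asns was higher in every knockout liver, Gdf15 was much higher on 3 of the 4 arrays, and Atf5 was higher in every knockout liver by amounts that differed with the dye orientation. The other 7 genes, Atf4 among them, had mean log2 ratios within 0.3 of 0, as most tested genes did. Counted from the highest mean, Ddit3 at 0.29 ranked 1130 and Trib3 at -0.24 ranked 15038 of 16249. A mean near 0 does not show even ratios, since Chac1 ran from -1.33 to 2.08, and Psat1 and Phgdh were dim. The median over the 10 genes was 0.04, against -0.001 over all tested genes, and by array it was -0.04, 0.11, 0.02 and 0.42. The name ATF4 stress response therefore describes how the genes were chosen and not a shared change in these livers.

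All 10 genes had a probe that passed the filter, a signal well above background in 3 or more mice of 1 genotype, and 11 of their 13 probes passed. Asns and Atf5 had log2 ratios above 0 on all 4 arrays, where 13.3% of all tested genes do so. Psat1 was below 0 on all 4, where 10.9% of tested genes are, but on replicate 4 its ratio was 0.00 to 2 decimals. The levels of all 4 knockout mice lay above those of all 4 control mice for Asns and Atf5, a pattern found in 7.11% of tested genes, and below them for Psat1, a pattern found in 5.03%. Because the genes were chosen with these ratios known, nothing is read from these counts. Without replicate 1, an alternative chosen after seeing the data, 3 genes were above 0 on the other 3 arrays, where 20% of tested genes are. These 3, Asns, Atf5 and Gdf15, also had non-overlapping levels in the remaining mice, as did 12.4% of tested genes.

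**Figure D1:**
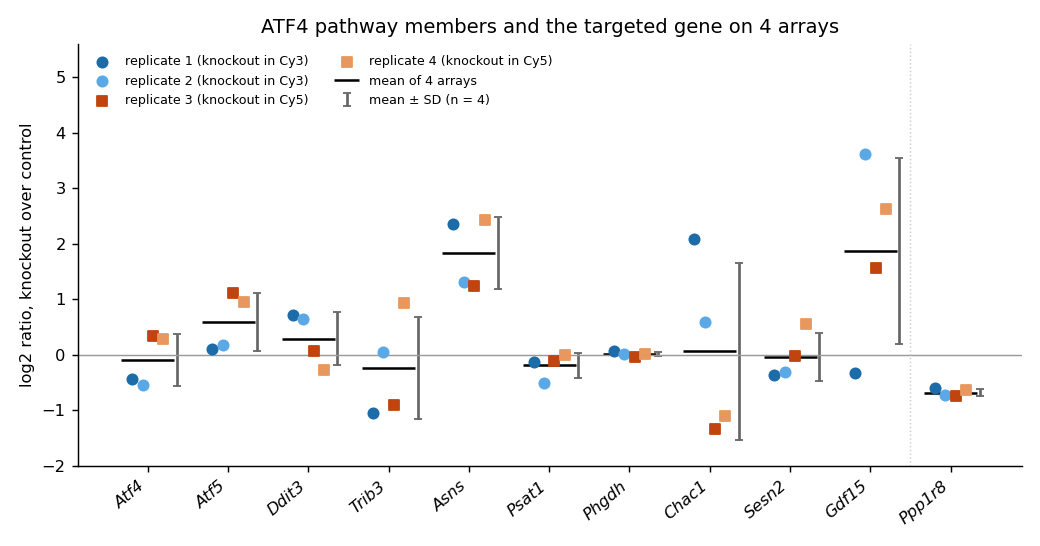
Log2 ratio of knockout over control (vertical axis) for the 10 genes and the targeted gene Ppp1r8 on each of 4 arrays. Circles are arrays with the knockout in Cy3, squares arrays with the knockout in Cy5, black lines the mean and grey bars the mean ± SD (n = 4). Asns lies between 1.24 and 2.43 on every array, Gdf15 is below 0 on replicate 1, and Chac1 runs from -1.33 to 2.08.

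Asns makes asparagine from aspartate and glutamine and is a classic ATF4 target. At chr6:7625171-7625228 on mm9, its probe had log2 levels of 13.80, 12.62, 13.01 and 14.00 in the knockout livers of replicates 1 to 4, against 11.44, 11.32, 11.77 and 11.56 in the control livers. The lowest knockout liver lay above the highest control liver, and the knockout livers were spread more widely than the control livers (SD 0.65 and 0.19, n = 4 each). The log2 ratios were 2.36, 1.31, 1.24 and 2.43. They averaged 1.84 ± 0.65 (SD, n = 4), which is 3.57-fold, with single arrays at 2.36-fold to 5.41-fold. Only 7 of the 16249 tested genes had a higher mean ratio than Asns, which ranked 8. The mean was 1.83 on the arrays with knockout in Cy3 and 1.84 on those with knockout in Cy5. In the processed signals the mean was 1.86 ± 0.66 (SD, n = 4). Acinar markers had median log2 ratios of 4.23, -2.61, -0.16 and -1.02 on replicates 1 to 4. Their part in the Asns values was not tested.

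Psat1 and Phgdh, 2 enzymes of serine synthesis that ATF4 also controls, were dim in all livers. The tested Psat1 probe, at chr19:15979622-15979681 on mm9, was well above background in 2 knockout and 4 control mice. Its log2 levels were 6.44, 6.50, 6.48 and 6.55 in knockout livers and 6.57, 7.01, 6.58 and 6.55 in control livers. Knockout livers were all at or below the control livers, and the control liver of replicate 2 stood far above the other 3. The mean log2 ratio was -0.19 ± 0.22 (SD, n = 4), and -0.70 ± 0.75 (SD, n = 4) in the processed signals, which spread dim probes more. The tested Phgdh probe, at chr3:98117215-98117274 on mm9, was well above background in 3 knockout and 3 control mice and gave log2 ratios of 0.06, 0.02, -0.04 and 0.01. A second probe of each gene was not well above background in any mouse, so at this signal a change in either gene may not be detectable.

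Gdf15, a secreted hormone that lowers food intake and is raised in many stressed tissues, had the widest range of ratios among the 10 genes. Its probe, at chr8:73153293-73153352 on mm9, had log2 levels of 11.86, 13.81, 12.50 and 12.87 in the knockout livers of replicates 1 to 4, against 12.18, 10.20, 10.94 and 10.25 in the control livers. The groups overlapped because the control liver of replicate 1 was the highest control and its knockout partner the lowest knockout. The log2 ratios were -0.32, 3.62, 1.56 and 2.62. Their mean of 1.87 ± 1.68 (SD, n = 4), or 3.66-fold, ranked 7 of 16249 genes. Refitted with the dye term, which weights the dye orientations equally, the log2 ratio was 2.85 without replicate 1 and 0.89 without replicate 2, so its size depends on those arrays. Median log2 ratios of the acinar markers were 4.23, -2.61, -0.16 and -1.02 on replicates 1 to 4, and their part in the Gdf15 values was not tested.

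**Figure D2:**
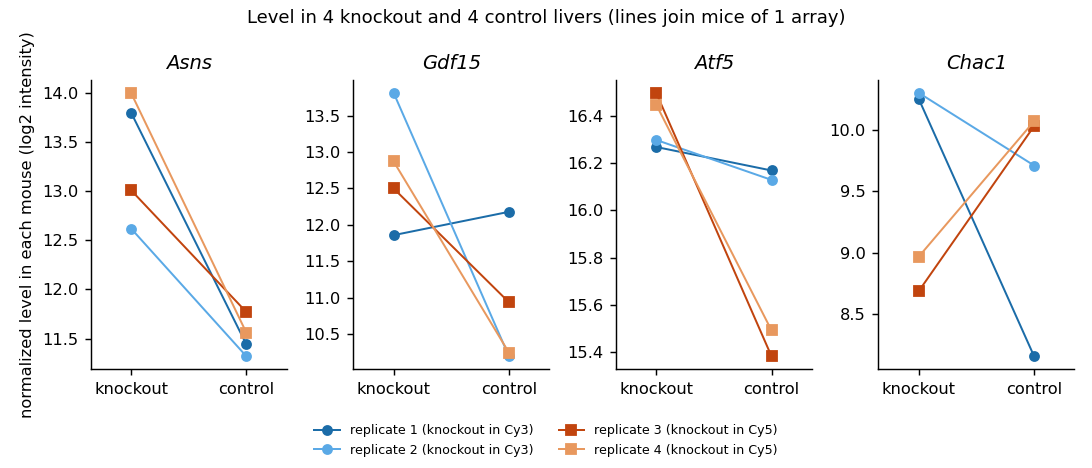
Normalized level (log2 intensity, vertical axes that differ between panels and do not start at 0) of Asns, Gdf15, Atf5 and Chac1 in 4 knockout livers (left) and 4 control livers (right) of each panel. Lines join the mice of an array, circles mark knockout in Cy3 and squares knockout in Cy5. The Asns lines all run downward to the control, the Gdf15 line of replicate 1 runs upward to 12.18, and the Chac1 lines run opposite ways in the 2 dye orientations.

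Among the transcription factors, Atf5 is a relative of ATF4 whose mRNA is translated by the same route. Its probe, at chr7:52067627-52067686 on mm9, had log2 levels of 16.27, 16.30, 16.50 and 16.45 in knockout livers, against 16.17, 16.13, 15.38 and 15.49 in control livers. The groups did not overlap, but the lowest knockout liver, at 16.27, was close to the highest control liver, at 16.17. The log2 ratios were 0.10, 0.17, 1.12 and 0.96, with a mean of 0.59 ± 0.53 (SD, n = 4), 1.5-fold, which ranked 285. The mean was 0.14 with the knockout in Cy3 and 1.04 with the knockout in Cy5. Each orientation held different mice, so the dye and the mice cannot be told apart.

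Atf4 itself, the regulator at the centre of the pathway, showed no common direction. At chr15:80087902-80087961 on mm9, its brighter probe gave log2 ratios of -0.44, -0.55, 0.34 and 0.28, a mean of -0.09 ± 0.47 (SD, n = 4). Both arrays with the knockout in Cy3 were below 0 and both with the knockout in Cy5 above 0. The other probe, at chr15:80086639-80086698, split the same way with -0.14, -0.37, 0.16 and 0.03. Such a split by dye orientation was seen in 24.3% of tested genes. The mRNA level does not show how much ATF4 protein is made, since the pathway acts on Atf4 translation.

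Ddit3, which encodes the cell death factor CHOP, is induced by ATF4 in prolonged stress. Its log2 ratios were 0.72, 0.65, 0.07 and -0.27, with a mean of 0.29 ± 0.48 (SD, n = 4). The knockout livers were even, at log2 levels of 8.77, 8.63, 8.58 and 8.53, and the control livers ranged more widely, at 8.06, 7.98, 8.51 and 8.81. The groups overlapped, since the control liver of replicate 4 was above all knockout livers. Trib3, a pseudokinase that CHOP and ATF4 induce and that restrains ATF4 in turn, had log2 ratios of -1.04, 0.05, -0.90 and 0.93, a mean of -0.24 ± 0.92 (SD, n = 4). The fitted ratio of Trib3 ran from -0.70 without replicate 4 to 0.22 without replicate 3. Its signs were mixed within both dye orientations, and its levels overlapped, at 10.26 to 10.97 in knockout livers and 10.04 to 11.76 in control livers.

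Chac1 degrades glutathione and is a target of the ATF4 and CHOP branch. Its range of ratios was second to that of Gdf15, and its sign differed between the dye orientations. Its log2 levels were 10.25, 10.30, 8.69 and 8.97 in knockout livers, against 8.16, 9.71, 10.03 and 10.07 in control livers. The log2 ratios were 2.08, 0.59, -1.33 and -1.11, with means of 1.34 for knockout in Cy3 and -1.22 for knockout in Cy5, and a mean over all arrays of 0.06 ± 1.6 (SD, n = 4). In the fit with the dye term the log2 ratio was -0.31 without replicate 1 and 0.43 without replicate 2, so its sign depends on the arrays used. The acinar markers had median log2 ratios of 4.23, -2.61, -0.16 and -1.02 on replicates 1 to 4, and their part in the Chac1 values was not tested. Sesn2, an amino acid sensor that restrains mTORC1, had log2 ratios of -0.37, -0.31, -0.03 and 0.56, with a mean of -0.04 ± 0.43 (SD, n = 4). Its fitted ratio was also of either sign without single arrays, at -0.19 to 0.11.

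**Figure D3:**
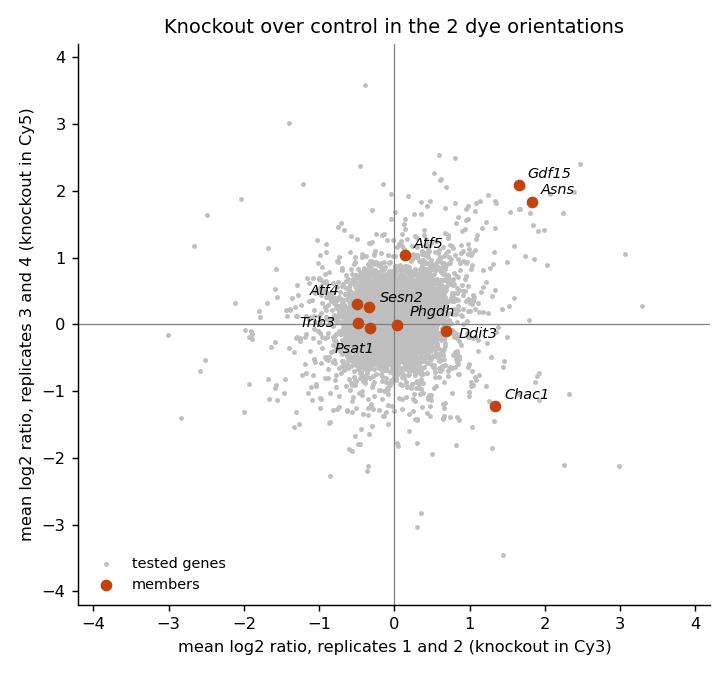
Mean log2 ratio of knockout over control on replicates 1 and 2 (horizontal axis, knockout in Cy3) and on replicates 3 and 4 (vertical axis, knockout in Cy5). Grey points are tested genes and coloured points the 10 members. Asns lies near the diagonal at 1.83 and 1.84, Atf5 is near 0 on the horizontal axis and at 1.04 on the vertical, and Chac1 lies at 1.34 and -1.22.

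Genes whose 4 ratios were nearest to those of Asns, out of 12550 tested genes with a symbol, were Npb, Fitm1, Clstn3, Cabyr and Ifi27l2b. Their root mean square differences from Asns over the 4 arrays were 0.373 to 0.803 log2 units. Npb, which encodes the peptide neuropeptide B, was nearest, with log2 ratios of 1.89, 1.46, 1.51 and 1.96. The genes nearest to Atf5 were Abcb1a, Hamp, Acot4, Rdh16 and Slc66a1, at 0.0774 to 0.142. Abcb1a, a drug efflux pump, had 0.15, 0.32, 1.1 and 0.96, and Hamp, which encodes the iron hormone hepcidin, had 0.09, -0.08, 1.17 and 0.89. By the way they were chosen, these 5 genes share with Atf5 low values on replicates 1 and 2 and values of about 1 on replicates 3 and 4. Nothing is read from that likeness.

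The rest of the pathway was followed in 10 lists with 115 genes, of which 108 were tested. None passed an adjusted p of 0.05 in limma, and at 0.1, 1 gene was higher (0.926% of the 108, against 3.53% of all tested genes) and 3 were lower (2.78%, against 2.07%). The median log2 ratio over the 108 genes was -0.03, against -0.001 over all tested genes, and the medians of single lists lay between -0.09 and 0.12. Apart from these 4 genes, no change was detected, which does not show that none took place. All 4 calls were lost when any 1 array was left out, with adjusted p between 0.11 and 0.281 in limma.

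Upstream of ATF4, none of the 11 tested eIF2 alpha kinases and regulators passed at 0.1, and their median log2 ratio was -0.04. Ppp1r15a, the stress-induced partner that brings protein phosphatase 1 to eIF2 alpha, had the largest ratio of the list, with -0.87, -0.04, -0.48 and -0.03 on the 4 arrays and a mean of -0.36 (adjusted p = 0.30, limma). Dnajc3, an inhibitor of the kinase PERK, had -0.23 (adjusted p = 0.186, limma), and Eif2ak2, the kinase that senses double-stranded RNA, had 0.23 (adjusted p = 0.336, limma). In a list of 9 bZIP partners and co-regulators, 1 passed at 0.1. This was Nfe2l2, encoding the antioxidant factor NRF2, which was higher in knockout livers at 0.26, 0.61, 1 and 1.09, with a fitted log2 ratio of 0.74 ± 0.08 (SE, adjusted p = 0.0586, limma). These fitted errors do not count the spread between dye orientations.

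Of the genes for amino acid and one-carbon synthesis beside Asns, Psat1 and Phgdh, none of 8 passed at 0.1, with a median of -0.04. The largest means were those of Mthfd1l, a mitochondrial folate enzyme, with 0.43 ± 0.60, Cth, which makes cysteine, with 0.20 ± 0.41, and Got1, which makes aspartate, with -0.11 ± 0.58 (SD, n = 4 each). None of 8 amino acid transporters passed, with a median of -0.03. Slc38a2, a glutamine and alanine carrier, had -0.46 ± 0.61, the glycine carrier Slc6a9 had 0.24 ± 0.16, and the serine and alanine carrier Slc1a4 had -0.21 ± 0.34 (SD, n = 4 each). The list of enzymes for serine and asparagine breakdown, which also holds related enzymes such as Gcat and Gldc, gave no call among 7 tested. Sds, the serine dehydratase, had -0.49 ± 0.48, Gcat -0.23 ± 0.11 and Shmt1 0.21 ± 0.03 (SD, n = 4 each).

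The cytosolic aminoacyl-tRNA synthetases, many of them ATF4 targets, had a median of -0.03 over 20 genes. One of them, Vars, the valine enzyme, was lower at 0.1, with -0.33, -0.51, -0.28 and -0.43 and a fitted log2 ratio of -0.39 ± 0.06 (SE, adjusted p = 0.0762, limma). Of 12 other tested targets, 1 was lower: Vegfa, an angiogenic growth factor, at -0.75, -0.87, -0.15 and -0.24, with a fitted log2 ratio of -0.50 ± 0.05 (SE, adjusted p = 0.0586, limma). Of 10 mitochondrial chaperones and proteases, 1 was lower: Htra2, a protease of the space between the mitochondrial membranes, at -0.57, -0.47, -0.30 and -0.39, with -0.44 ± 0.05 (SE, adjusted p = 0.0616, limma). The fitted errors of Vars, Vegfa and Htra2 also do not count the spread between dye orientations. Without the dye term, Htra2 kept its call at 0.1 (adjusted p = 0.0937, limma). Vars (0.106), Nfe2l2 (0.133) and Vegfa (0.205) lost theirs in that fit. Among 5 paralogues of the members, none passed. Trib1, a relative of Trib3, had -0.57, 0.11, -0.53 and -0.52, while Sesn1 and Sesn3, relatives of Sesn2, had means of -0.11 and 0.11.

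The endoplasmic reticulum chaperones and sensors, 18 genes of the unfolded protein response, gave no call at 0.1. Their median log2 ratio was 0.63 on replicate 1, -0.04 on replicate 2, -0.07 on replicate 3 and -0.69 on replicate 4. Creld2, a secreted chaperone-like protein, had 1.84, -0.12, -0.06 and -2.80, Sdf2l1, a partner of the chaperone BiP, had 1.08, -0.13, -1.05 and -1.14, and Xbp1, a transcription factor of the response, had 0.22, -0.31, 0.08 and -0.86. Acinar markers, with medians of 4.23, -2.61, -0.16 and -1.02, were also highest in replicate 1, and their part in these values was not tested.

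**Figure D4:**
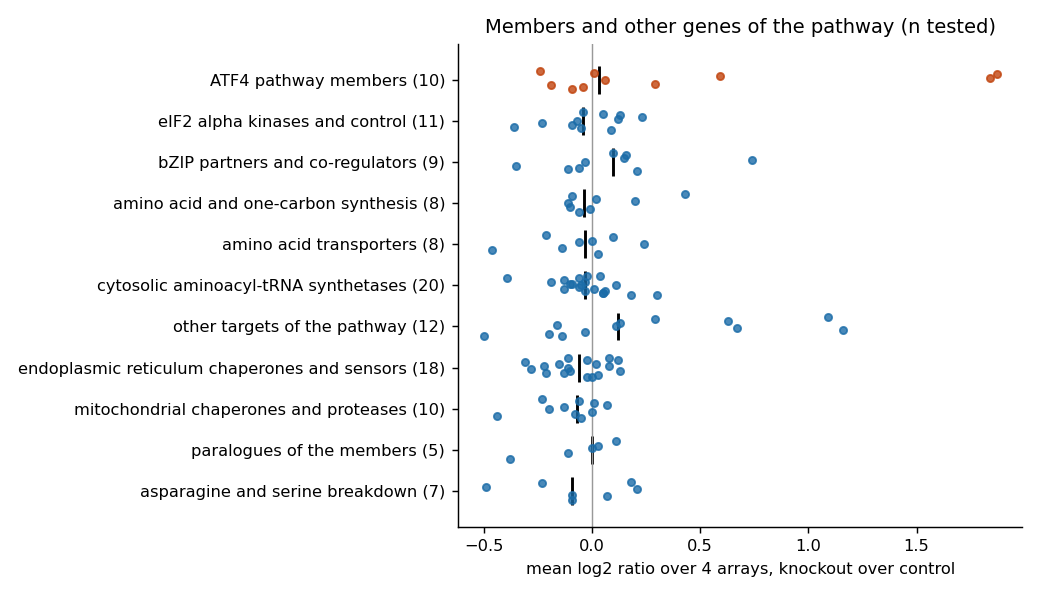
Mean log2 ratio over 4 arrays (horizontal axis) of the 10 members (top, in orange) and of the tested genes of 10 other lists of the pathway (below, in blue), with the number tested in brackets. Vertical bars are list medians, and points are spread vertically only to separate them. All medians lie between -0.09 and 0.12, and the 2 points farthest right are Asns and Gdf15.

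The sign pattern of Gdf15, below 0 on replicate 1 and above 0 on the other 3 arrays, was chosen for a search after its values were seen. It was found in 7 of the 108 tested pathway genes (6.48%), close to the 6.72% of all tested genes that have it. The 7 were Fgf21, Vldlr, Ndrg1, Gadd45a, Atf3, Ppp1r15b and Afg3l2, and nothing is read from their number. Fgf21, a liver hormone of fasting and amino acid shortage, had log2 ratios of -0.65, 1.6, 1.33 and 2.37. Vldlr, a lipoprotein receptor, had -0.60, 1.31, 1.57 and 2.09. Both, like Gdf15, had ratios above 1 on each of replicates 2 to 4. This likeness was picked after the values were seen, and its share among all tested genes was not counted. Ndrg1, with -0.31, 1.08, 0.9 and 1, and Gadd45a, a growth arrest gene, with -0.13, 0.64, 1.14 and 0.86, had smaller ratios. Atf3, a stress-induced bZIP factor, had -0.76, 0.43, 0.56 and 0.6, and Ppp1r15b and Afg3l2 had means of 0.05 and 0.01. None of the 7 passed an adjusted p of 0.1 in limma, where their values were 0.123 to 0.91. Asns did not share this pattern, with 2.36 on replicate 1.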

How the data were processed

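Total liver RNA was measured on Agilent mouse expression arrays. Per the labels' protocols, cDNA made from it was amplified as cRNA, in which Cy3 or Cy5 was incorporated. The deposited scanner files hold, per the file headers, the mean intensity and median local background intensity of each spot and dye, written by Feature Extraction 10.7.3.1, and processed intensities that this software had background-subtracted and dye-normalized. The authors deposited a value table of log2 ratios, and each of its values lay within 0.0001 of the log2 knockout over control ratio of the processed intensities, which settles its scale and direction, and it had received no further centring. The medians of its columns were -0.05, 0.14, -0.18 and -0.18.

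Background was corrected with normexp (offset 50), with parameters fitted per array and dye without spots marked for non-uniform background, because a fit on every spot fails on replicate 1. Ratios were loess-normalized within arrays, control spots at weight 0, and outlier spots left out. Levels per mouse were taken after Aquantile normalization between arrays. The brightest tested probe stood for a gene. The fit used limma 3.58.1 in R 4.3.3 on 4 arrays, with a dye intercept and two-sided p-values adjusted by Benjamini-Hochberg over 16249 genes. No count of reads exists for arrays, and their number limits the precision. On simulated data of this design and gene number, 97% of genes with an absolute log2 ratio of 1 and 100% of those with 2 were recovered at an adjusted p of 0.1. There were 26 false calls. The simulated noise was normal, with the SD of a gene taken from replicates 1 and 2 and pulled toward the median over genes. These shares therefore do not hold for genes that vary widely between mice. Pathway genes are named where they pass the threshold, or else as the 3 with the largest mean of a list without such a gene. The genes nearest to Asns and Atf5 are the 5 with the smallest root mean square difference for each. The members and lists were chosen with earlier results of these data known. Positions of probes were copied from the array files, which use mm9. Of 39429 probes, 27234 matched a RefSeq accession for current symbols, and the others kept the name in the array files. Figures were drawn with matplotlib 3.10.9. Alternatives covered background correction, normalization, the dye term, the filter, the probe of a gene and single arrays. All arrays shared 1 slide, so a slide block was not run.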

Additional observations from a re-analysis of the deposited data

Results flagged for a closer look

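Among 56 sets of 4 values examined for 1 sample far from the others, 3 met Dixon's limit, about as many as chance gives at 1 in 20. The knockout levels of Trib3 were 10.26 on replicate 1 and 10.86 to 10.97 on the other arrays, a gap of 0.845 of their range. The control levels of Psat1 were 7.01 on replicate 2 and 6.55 to 6.58 on the others, a gap of 0.925 of their range. The log2 ratios of Trib1, a relative of Trib3, were 0.11 on replicate 2 and -0.57 to -0.52 on the others, a gap of 0.927 of their range.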

How the results depend on the processing

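The median log2 ratio over the 10 members stayed between -0.02 and 0.13 under the alternatives that keep all arrays and between 0.00 and 0.16 without single replicates. The means of Asns (1.54 to 2.13), Gdf15 (0.89 to 2.85), Atf5 (0.55 to 0.63) and Ddit3 (0.20 to 0.38) stayed above 0 under every alternative run, while without single replicates Chac1 (-0.31 to 0.43, and -0.10 with normexp on every spot), Trib3 (-0.70 to 0.22) and Sesn2 (-0.19 to 0.11) lay on either side of 0; all these are fitted values with the dye term, save in the alternatives that change the design. Counts of genes past a threshold moved most. At an adjusted p of 0.05 in limma, 0 genes passed, against 207 with median centring, 29 without background correction, 10 without the dye term, 266 without the filter, 8 on the processed signals, 2746 in a separate-channel fit and 27 when all 4 mice of a genotype had to be above background. At 0.1, 910 passed, against 1366, 230 and 4220 with median centring, no dye term and separate channels, 442 with normexp on every spot, none with trend and robust settings, and 0 to 60 without single replicates. The count of other pathway genes at 0.1 was 4, against 1 without the dye term, 22 in the separate-channel fit, 0 with trend and robust settings and 0 to 1 without single replicates. The log2 ratio of Ppp1r8 passed 0.05 with median centring (-0.68), without the filter (-0.68) and in the separate-channel fit (-0.68), and missed 0.1 with normexp on every spot (adjusted p = 0.106), with trend and robust settings (0.204) and without any single replicate (0.116 to 0.248); over all alternatives its adjusted p ranged from 0.000895 to 0.248. Without single replicates the fitted mean of 4 pathway genes changed sign: it ran from -0.97 (without replicate 3) to 0.40 (without replicate 4) for Creld2, which was 0.21 without replicate 2, from -0.42 to 0.20 for Got1, from -0.45 to 0.02 for Xbp1 and down to -0.01 for Cth. The causes were not tested, apart from fewer arrays. The fit on ratios within arrays is itself paired, since each array holds 1 knockout and 1 control mouse.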
